A study of Rattus norvegicus with 43 samples.

Results

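The mRNAs of the cytosolic ribosomal proteins, the protein components of the large and small subunits of the ribosome, were followed from rat liver into rat primary hepatocyte (RPH) culture. Genes were taken by symbol (Rpl or Rps followed by a digit or p, and Rpsa), leaving out the Rps6k kinases and pseudogene symbols, which gave 48 of the 14218 genes with a probe set of their own on the array. Of these, 45 passed the filter on low signal and were tested among 10649 genes, 30 of the large and 15 of the small subunit. The other 3, Rpl28, Rpl30 and Rpl3l, were above the array median on 1, 1 and 0 of 43 arrays. A further 36 probe sets list several genes, at least 1 of them a ribosomal protein gene, and are summarised without names. Each of 3 untreated male Sprague Dawley rats gave 5 samples, and no age was given for them in the sources used here. A lobe tied off before perfusion was the liver sample and the hepatocyte pellet after isolation was RPH 0 h. Plated cells were sampled at 4, 24 and 48 h, with serum in the medium for the attachment period and without it from 4 h on, and with insulin, transferrin and dexamethasone throughout. The arrays were Affymetrix RG230-2, with up to 3 technical arrays per sample, and the values are MAS5 signals, an intensity that the authors scaled to a common trimmed mean on each array.

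Ribosomal proteins are made in large and closely matched amounts. Most are assembled on ribosomal RNA in the nucleolus with the help of biogenesis factors that do not stay in the finished particle. Their mRNAs belong to the TOP class (terminal oligopyrimidine), which start with a C and a run of pyrimidines. Their translation is switched by mTOR, the kinase that senses amino acids and insulin, largely without a change in mRNA level, so that an array shows only part of their regulation. A hepatocyte, which secretes most of the plasma proteins, carries a large stock of ribosomes. The Rpl and Rps symbols also cover genes that are named as relatives of another ribosomal protein gene, here Rpl7l1, Rpl26l1, Rpl39l1, Rps4y2 and Rps27l.

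The annotated start sites, where a TOP sequence would lie, are shown for genes that changed and for Rpl37a, which like Rpl22 has the standard form. The windows hold 15 bases before and 15 bases from the annotated start, on the gene's strand, from the RefSeq annotation of build GRCr8, 5′ to 3′. Capitals mark the longest run of C and T that lies within 15 bases of the start.
Rpl37a, chr9:81748076-81748105, plus strand: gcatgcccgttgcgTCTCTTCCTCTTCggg
Rpl22, chr5:168117946-168117975, plus strand: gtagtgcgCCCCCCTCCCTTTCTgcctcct
Rpl23, chr10:83272170-83272199, minus strand: actaaCTTCCTTTCTgactctttccggacg
Rpl12, chr3:36661925-36661954, plus strand: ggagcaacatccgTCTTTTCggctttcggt
Rpl3, chr7:113507976-113508005, minus strand: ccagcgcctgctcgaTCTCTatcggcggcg
Rps4y2, chr4:183000898-183000927, plus strand: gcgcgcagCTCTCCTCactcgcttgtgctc
Rpl7l1, chr9:21695703-21695732, plus strand: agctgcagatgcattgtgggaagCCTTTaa
In Rpl37a and Rpl22 the annotated first base was a C inside a run of 13 and 15 pyrimidines. In Rpl23 the run of 10 ended at the base before the annotated start, and in Rpl7l1 the longest run was 5. A start sequence was found for 43 of the 48 genes (not for Rpl23a, Rpl27, Rpl30, Rpl7 and Rps29). A C at the start with 4 or more pyrimidines after it was found in 12 of 43 (27.9%), against 2.63% of 33469 promoters. A run of 10 or more pyrimidines within 15 bases of the start was found in 23 of 43 (53.5%), against 8.38% of all. CCGGAA, searched on both strands of the 300-base window, was found in 17 of 43 (39.5%) against 15% of all, and TATAAA in the 250 bases before the start in 4 of 43 (9.3%) against 8.06%. The promoter share of TATAAA was counted on the gene's strand only. TTCCGG, the reverse form of CCGGAA, overlaps pyrimidine runs. These are matches of letters around annotated starts, which need not be the true first base.

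The mRNAs of the ribosomal proteins were among the brightest signals of every sample, and 38 of the 45 had a mean signal above 5000 where the median probe set of an array lay between 79.4 and 145. The 5 with the highest mean signal were Rps29, Rpl26, Rps23, Rpl7a and Rps3a. Rps23, a protein of the decoding centre, was at 24321, 23982 and 24337 in the livers of rats 1 to 3 and 27229, 23614 and 22000 at 48 h. Rps3a was at 26425, 19246 and 23117 and then 25895, 23833 and 19415, and Rpl7a at 16959, 22836 and 24304 and then 27501, 23229 and 21539. In these 3 genes the groups overlapped. In Rps29 and Rpl26 every 48 h sample was below every liver as deposited, with log2 differences of -0.41 and -0.19. Such a separation downward was found in 28.1% of all genes. Rps13, Rpl39, Rpl26l1 and Rpl39l1 were read by probe sets with a mean under 500. Those of Rps13 (80.6) and Rpl26l1 (85.6) were near the array median. That of Rpl39 (248.5) was above it on 41 of 43 arrays, and that of Rpl39l1 (53.2) on 10. Since probes differ in brightness, the order of these levels is not an order of mRNA amounts. The replicate spread was small, with a median SD over rats of 0.16 on the log2 scale against 0.24 for all genes, and a median standard error of a comparison of 0.155 against 0.22. Log2 fold changes of the ribosomal protein genes were also closer to each other than those of all genes, with an SD between 0.12 and 0.42 in the 6 comparisons against 0.45 to 1.22. No set of equally bright genes was taken beside them, and the part of brightness in these small spreads was not tested.

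The samples carry some differences that touch every comparison below. The signal of the 3′ actin control probe set over that of the 5′ one, a ratio that increases as RNA degrades, was 4.60 ± 2.05 in liver (SD, n = 3) and 3.90 ± 0.645 at 0 h, and then 2.97 ± 0.136, 2.35 ± 0.139 and 2.22 ± 0.254 at 4, 24 and 48 h. The bright end of the arrays dropped in culture, and the 99th percentile of signal lay at 14930 to 15480 in liver and 10730 to 11920 at 48 h. The 12 hepatocyte markers tested summed to 389700 to 420100 in liver and 201800 to 227700 at 48 h, and 10 of them were lower at 48 h. For this and the other marker counts, 22.6% of all genes were lower at 48 h than in liver and 25.4% higher. For other liver cells, 9 of 10 Kupffer cell markers, 10 of 10 endothelial, 5 of 5 erythroid and 6 of 12 stellate cell markers were lower at 48 h than in liver, and 2 of the last were higher. Of 4 cholangiocyte markers tested, 1 was higher at 48 h (Epcam) and 1 lower (Krt19), and their sum was 1113 to 1193 in liver, 1068 to 1216 at 0 h and 2328 to 3212 at 48 h. The 10 Kupffer cell markers summed to 23540 to 30050 in liver, 13340 to 17240 at 0 h and 2185 to 4766 at 48 h. The sums of the 10 endothelial markers were 13980 to 17230, 8689 to 12570 and 410.9 to 873.8, and those of 5 erythroid markers 7830 to 59320, 203.4 to 1792 and 230.6 to 324.2. The 12 stellate cell markers summed to 7274 to 14400 in liver, 3324 to 7468 at 0 h and 5660 to 7198 at 48 h. All 4 lymphocyte and both neutrophil markers tested were lower at 48 h than in liver. In such bulk samples fewer cells of a type and less RNA per cell cannot be told apart. The part of these differences in the ribosomal protein values was not tested. Fits with the actin ratio as a covariate are given below. That ratio was 3.16 or more in every liver and 0 h sample and 3.12 or less in every plated one. Those fits therefore cannot separate RNA quality from culture.

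**Figure D1:**
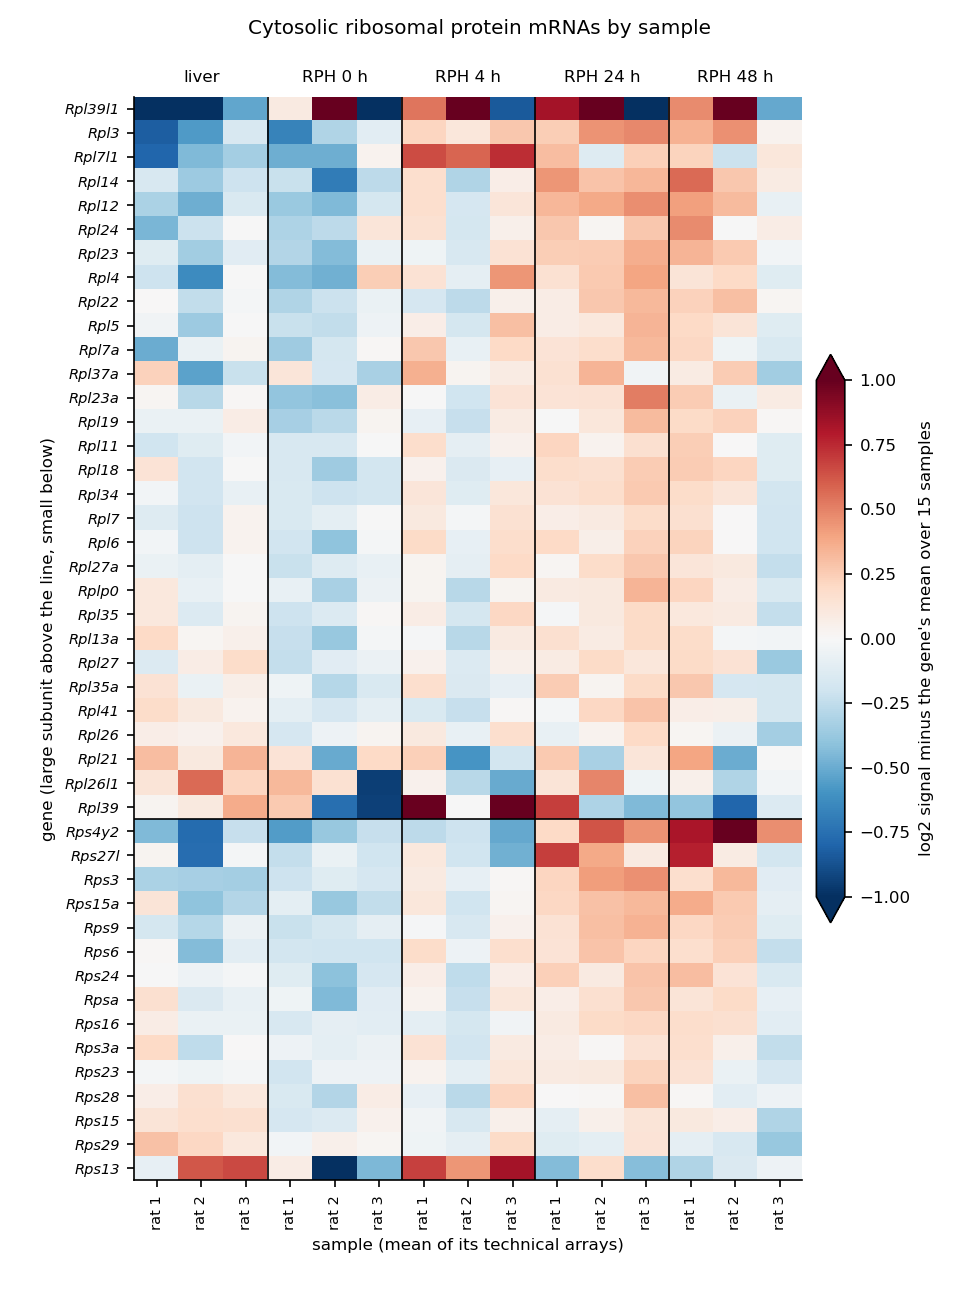
Log2 signal of the 45 tested ribosomal protein genes (rows, large subunit above the line and small subunit below, ordered by the change from liver to 48 h) in the 15 samples (columns, 3 rats per group), minus each gene's own mean over the 15 samples; colours saturate at 1 in either direction. Most rows turn from blue at RPH 0 h to red at 24 h, and rat 3 at 48 h is pale blue. Rps4y2 is red at 48 h and Rpl7l1 at 4 h. The dim rows of Rpl39l1, Rps13 and Rpl39 reach colours at least as deep.

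Many of the 45 genes followed a shared profile. Of the 990 pairs of genes the median correlation over the 15 samples was r = 0.555, and 37 of 45 genes correlated above 0.5 with the median of the others. The same values were not taken over all genes or over equally bright ones, so these have no background. The samples share the array scaling, and its part in these correlations was not tested. The median gene, on the log2 scale relative to each gene's own mean, stood at -0.0048, -0.19 and -0.0039 in the livers of rats 1 to 3. At 0 h it was at -0.18, -0.25 and -0.069, and at 4 h at 0.092, -0.16 and 0.089. At 24 h it was at 0.15, 0.16 and 0.25, and at 48 h at 0.19, 0.087 and -0.12. The 3 samples of 24 h were thus all above those of liver and of 0 h, while the 48 h samples overlapped with those of liver and rat 3 was lower than at 24 h. The 48 h sample of rat 3, the 4 h sample of rat 2 and the liver of rat 2 stood below the other samples of their group. The genes with the lowest correlation to the median of the others were Rpl26l1 (r = -0.081), Rps29 (-0.029) and Rpl39l1 (0.0076).

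The median place of the 45 genes among the 31042 probe sets of a sample, with 1 the brightest, changed more evenly. It was 291, 341 and 311 in liver, 336, 442 and 337 at 0 h, and 277, 299 and 279 at 4 h. At 24 h it was 170, 145 and 175, and at 48 h 152, 150 and 182. All samples of 24 and 48 h were nearer the top than those of liver, 0 h and 4 h. A place does not depend on how an array is scaled, and it also moves when other bright genes move. The places of equally bright probe sets of other genes were not taken beside them. These places are descriptions with no test.

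**Figure D2:**
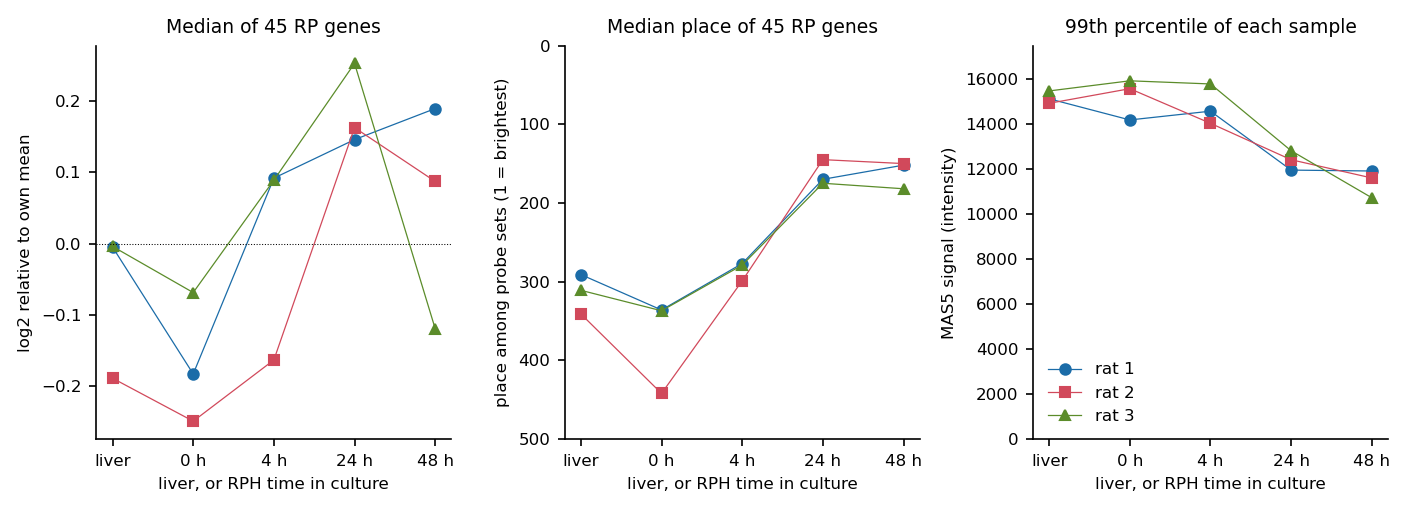
Per rat (symbols) in liver and at 4 times of RPH culture: the median of the 45 ribosomal protein genes on the log2 scale relative to their own mean (left), their median place by brightness among 31042 probe sets, with the brightest at the top (middle), and the 99th percentile of signal of the sample (right). The median place runs from 291 to 341 in liver to 150 to 182 at 48 h, while the 99th percentile drops from 14930 to 15480 down to 10730 to 11920.

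The first comparison, RPH 0 h against liver, covers the isolation of the cells. No ribosomal protein gene passed the test (limma, adjusted p under 0.05), where 0.141% of all genes were higher and 0.432% lower. At an unadjusted p under 0.05, 0 were higher and 1 was lower, where 2.10% of all genes were higher and 11.2% lower. Of the 45 genes 32 had a negative value, and of all 10649 genes 6387. The median log2 fold change was -0.10, with -0.08 over all genes, but 0.28, with 0.30 over all genes, when every array was centred on its own median. Without the liver of rat 2 it was -0.16, again with 0 calls, and without the 0 h sample of rat 1 there was 1 call. In those 2 fits 0 and 24 of all genes were higher, and 0 and 185 lower. With the centring the calls over all genes changed from 15 higher and 46 lower to 19 and 18. Rplp0, which forms the base of the acidic stalk of the large subunit, had signals of 20125, 17715 and 18621 in the 3 livers and 17694, 14937 and 17913 at 0 h. Its log2 difference was -0.16, with overlapping groups. The dim probe set of Rps13 was at 76.2, 124 and 128 in liver and 84.8, 26.5 and 59.0 at 0 h.

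Between 0 and 4 h, as the cells attached in the presence of serum, 4 of 45 genes rose and 0 fell, where 16.3% of all genes were higher and 22.6% lower. The median log2 fold change was 0.16, with -0.15 over all genes. Of the 45 values 41 were positive, and of those of all 10649 genes 4302. In 8 of 45 genes every 4 h sample was above every 0 h sample, against 19.4% of all genes. In 0 every one was below, against 27.8%. The 4 genes that rose were Rpl7l1, Rpl3, Rpl39 and Rps13. Rpl7l1, related to Rpl7, had signals of 1482, 1481 and 2128 at 0 h and 3270, 3109 and 3466 at 4 h. All 4 h samples were above all 0 h samples, and the log2 fold change was 0.97 (adjusted p = 0.00148). A second probe set of this gene changed by 0.72. Rpl7 itself was at 16321, 16964 and 18146 and then 19416, 17925 and 20136, a log2 difference of 0.16 (adjusted p = 0.361). Rpl3, a core protein at the peptidyl transferase centre of the large subunit, was at 12995, 16763 and 19219 at 0 h. It reached 24031, 22376 and 24942 at 4 h, again without overlap, a rise of 0.56 (adjusted p = 0.0349). The dimmer second probe set of Rpl3, with a mean signal of 643, changed by -0.021, and with the mean of both the value was 0.27 (adjusted p = 0.458).

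Rpl39 and Rps13 rose by 1.24 (adjusted p = 0.0227) and 1.31 (adjusted p = 0.00912), both from dim probe sets, that of Rps13 near the array median. Rpl39 was at 297, 148 and 130 at 0 h and 493, 248 and 620 at 4 h, with overlapping groups. Rps13 was at 84.8, 26.5 and 59.0 and then at 130, 110 and 143, without overlap. Its probe set was above the array median on 12 of 43 arrays, where the filter asked for 5. Its highest group mean was that of 4 h, so the filter and this call are not independent. With a stricter form of the filter Rps13 was not tested. At 24 h Rpl39 was at 402, 201 and 183 and Rps13 at 59.7, 91.3 and 59.9, and neither difference from 4 h passed the test. As deposited, the quartiles of the 45 log2 differences were 0.082 and 0.28, where those of all genes were -0.56 and 0.32. Rps6, the substrate of the S6 kinases, was at 17699, 17453 and 17505 at 0 h and 22797, 19437 and 22533 at 4 h, a difference of 0.29 (adjusted p = 0.157) with no overlap of the groups. Rpl5 and Rpl11, which bind the p53 regulator Mdm2 when ribosome assembly fails, differed by 0.24 and 0.15 (adjusted p = 0.273 and 0.408), and Rpsa, also known as a laminin receptor, by 0.17 (adjusted p = 0.412). The count of 4 became 2 without the 0 h sample of rat 2, without the 4 h sample of rat 1 or of rat 3, or without rat 3. In those fits 1241 to 1585 of all 10649 genes were higher. The call of Rpl7l1 held in each of the 9 fits that left out a rat or a sample (adjusted p up to 0.0304). That of Rps13 ended without rat 3 (adjusted p = 0.0928) and with only the 2 groups in the fit (0.0503). That of Rpl39 ended without rat 3, without its 0 h or 4 h sample, without the 4 h sample of rat 1 and without the 0 h sample of rat 2 (adjusted p 0.0689 to 0.29), and that of Rpl3 in 7 of the 9 fits, all but those without rat 3 or its 0 h sample (0.0556 to 0.22). The call of Rpl39 also ended with only the 2 groups (0.0701) and with the technical arrays as separate values (0.132), and that of Rpl3 with only the 2 groups (0.0716), without the filter (0.0561), with the arrays centred (0.0659) and with the actin ratio as a covariate (0.135).

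Between 4 and 24 h, 2 genes rose and 1 fell, where 26.3% of all genes were higher and 13.5% lower. Without the genes named as relatives, 1 of 40 rose and 0 fell. The median over the 45 genes was 0.18, with 0.14 over all genes. Of the 45 values 39 were positive, and of those of all 10649 genes 6264. In 15 of 45 genes every 24 h sample was above every 4 h sample, against 31.8% of all genes. In 2 every one was below, against 18.1%. Rps4y2, a relative of the small-subunit gene Rps4x, was at 490, 508 and 412 at 4 h and 675, 909 and 802 at 24 h. The groups did not overlap and the rise was 0.75 (adjusted p = 0.0067). Rps3, which lines the mRNA entry channel of the small subunit, was at 14314, 12658 and 13533 and then 15602, 17955 and 18431, a rise of 0.36 (adjusted p = 0.0499). Rpl7l1 fell by 0.52 on the log2 scale (adjusted p = 0.0457) from its 4 h level to 2571, 1900 and 2456. Its signal at 24 h was below every 4 h sample and, in rat 2, below the highest sample of 0 h. The call of Rps4y2 ended without rat 3 (adjusted p = 0.063). Those of Rps3 (0.0632 to 0.268) and Rpl7l1 (0.0657 to 0.209) each ended in 8 of 9 fits that left out a rat or a sample, all but the fit without the 24 h sample of rat 1. The call of Rps3 also ended with the arrays centred (adjusted p = 0.256), with the actin ratio as a covariate (0.0979), with only the 2 groups (0.112), without the filter (0.0782) and with the mean of probe sets (0.0507). That of Rpl7l1 ended under quantile normalization (0.0578), with only the 2 groups (0.057) and without the filter (0.0708). The count of 3 was 1 without rat 1, without the 4 h sample of rat 1 or without the 24 h sample of rat 3, and 0 without rat 3. In those fits 1616 to 2583 of all 10649 genes were higher and 871 to 1205 lower.

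Quantile normalization gives every array the same distribution and so removes the drop of the bright end. With it, the number that rose between 4 and 24 h was 22 of 45, with 1 that fell, where 23.9% of all genes were higher under the same setting, and the median was 0.39 with 0.09 over all genes. Between 24 and 48 h the count was 0 in both directions as deposited, where 2.51% of all genes were higher and 1.77% lower. At an unadjusted p under 0.05 it was also 0 in both directions, where 9.43% of all genes were higher and 6.25% lower. Of the 45 values 41 were negative, and of those of all 10649 genes 5160. The median was -0.12, with 0.01 over all genes, but 0.00079 without rat 3 and 0.026 under quantile normalization. Without the 48 h sample of rat 3 alone it was -0.011, and without its 24 h sample -0.074.

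RPH at 48 h against liver spans the whole experiment. In this comparison 7 of 45 genes rose and 1 fell, where 25.4% of all genes were higher and 22.6% lower, and the median was 0.13, with 0.04 over all genes. Among the genes that passed, Rps4y2 had the largest change. It was at 432, 344 and 501 in the 3 livers and 1033, 1206 and 813 at 48 h, a rise of 1.25 (adjusted p = 0.000141) with no overlap. Rpl3 rose by 0.80 (adjusted p = 0.00426), from 11639, 13957 and 18489 to 26243, 28306 and 21186. Its second probe set changed by -0.28, and with the mean of both the value was 0.26 (adjusted p = 0.446). Rpl7l1 was at 1202, 1530 and 1639 in liver and 2421, 1793 and 2248 at 48 h, a rise of 0.57 (adjusted p = 0.0266), and its second probe set changed by 0.34. Both relatives thus stayed above liver at 48 h, where Rps4y2 was at its highest and Rpl7l1 was past its highest level, that of 4 h.

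The remaining rises were in genes of the standard ribosome. Rpl14 rose by 0.55 (adjusted p = 0.0218), from 8660, 7533 and 8383 to 14306, 11683 and 10227. Rpl12, which sits at the base of the ribosomal stalk with Rplp0, rose by 0.53 (adjusted p = 0.0149), from 13980, 12413 and 15647 to 23089, 21639 and 16497. Rps3 rose by 0.46 (adjusted p = 0.0136), from 10783, 10665 and 10586 to 15089, 16811 and 12425. Rpl23, another of the proteins that can bind Mdm2, rose by 0.39 (adjusted p = 0.0484), from 13300, 11379 and 13379 to 18310, 17326 and 14216. In each of these the 3 samples of 48 h were above the 3 livers, and rat 3 was the lowest at 48 h. Such a full separation upward was found in 10 of 45 genes, against 31.1% of all genes. Downward it was found in 6, against 28.1%. Rps29, the brightest of the 45, was the only one that fell as deposited, from 40803, 38487 and 35831 to 31320, 29827 and 25717, and its direction turned with the scaling. It was -0.41 as deposited (adjusted p = 0.0236), -0.017 with the arrays centred (adjusted p = 0.95) and 0.16 after quantile normalization (adjusted p = 0.24). Rplp0, Rpsa, Rps6, Rpl5 and Rpl11 differed from liver by 0.03, 0.10, 0.23, 0.20 and 0.16 and did not pass the test.

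**Figure D3:**
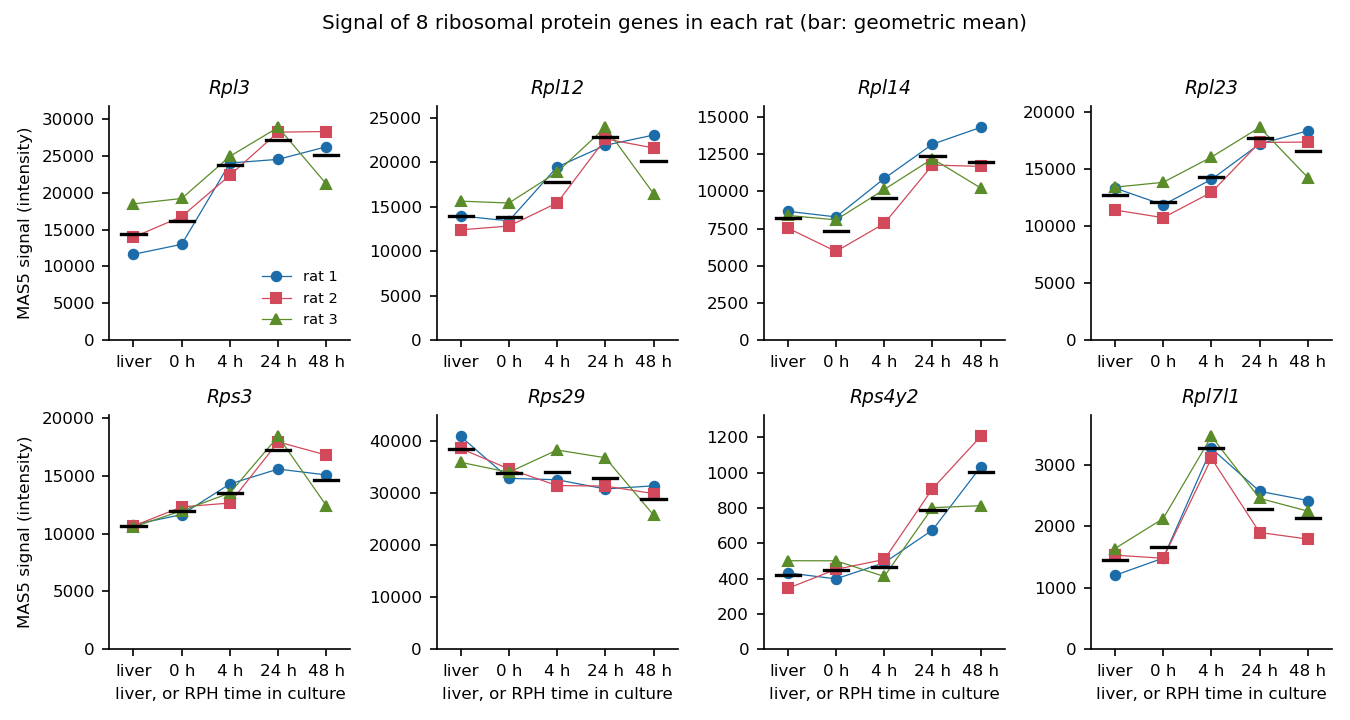
MAS5 signal (linear, from 0) of 8 ribosomal protein genes in the 3 rats (symbols joined by lines) in liver and in RPH at 0, 4, 24 and 48 h; black bars are geometric means of the 3 rats. Rps4y2 rises from 344 to 501 in liver to 813 to 1206 at 48 h, Rpl7l1 is highest at 4 h, Rps29 is lower at 48 h than in liver in these values (not after quantile normalization, where the difference is 0.16), and in the other 5 genes rat 3 is lowest at 48 h.

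With the arrays centred on their median, which moved the median of all genes in this comparison from 0.04 to 0.43, 25 genes rose and 0 fell, where 40.6% of all genes were higher. The median of the ribosomal protein genes was 0.094 above that of all genes in both. The calls over all genes were 2701 higher and 2406 lower as deposited and 4319 and 1440 when centred. After quantile normalization 30 rose and 0 fell, where 26.3% of all genes were higher, and the median was 0.47 with 0.07 over all genes. Rpl7l1 was not among them (0.45, adjusted p = 0.0783). With the actin ratio as a covariate 1 gene passed, Rps4y2, where 13.7% of all genes were higher under the same setting, and the median was 0.066 with 0.043 over all genes. Calls were 4 without the 48 h sample of rat 1, 5 without that of rat 2, 4 without the liver of rat 2, 1 without rat 1 and 2 without rat 2. In these fits 1785 to 2405 of all 10649 genes were higher and 1582 to 2312 lower. Rps4y2 held in all 9 such fits (adjusted p up to 0.0108). The call of Rpl3 ended without rat 1 or rat 2 (adjusted p 0.0605 to 0.101), and that of Rps3 without either of these or the 48 h sample of rat 2 (0.0675 to 0.162). Those of Rpl12 (0.0548 to 0.175) and Rpl14 (0.0629 to 0.132) ended without rat 1, rat 2, the 48 h sample of rat 1 or the liver of rat 2, that of Rpl12 also without the 48 h sample of rat 2 and that of Rpl14 also without rat 3. The call of Rpl7l1 ended without rat 1, rat 3, their 48 h samples or the liver of rat 1 (0.0708 to 0.291). The call of Rps29 ended without any 1 rat, without the 48 h sample of rat 3 and without the liver of rat 1 or rat 2 (0.0563 to 0.128). The call of Rpl23 ended in 7 of 9 fits, all but those without rat 3 or its 48 h sample (0.0648 to 0.31). With only the 2 groups in the fit the calls of Rpl23 (0.0972), Rps3 (0.055) and Rps29 (0.0655) ended, and without the filter that of Rpl23 (0.0685). The median was 0.071 without the liver of rat 2.

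Against the freshly isolated cells, RPH at 48 h had 6 genes that rose and 0 that fell, where 26.6% of all genes were higher and 17.5% lower. The median was 0.24, with 0.12 over all genes. Of the 45 values 43 were positive, and of those of all 10649 genes 6006. This comparison shares its 48 h samples with the one against liver. Rps4y2 rose by 1.16 (adjusted p = 0.000272), from 398, 452 and 501 at 0 h. Rpl14 rose by 0.70 (adjusted p = 0.00617), from 8283, 5961 and 8084, and Rpl3 by 0.64 (adjusted p = 0.0165). Rpl12 rose by 0.54 (adjusted p = 0.0144) from 13423, 12839 and 15433, and Rpl23 by 0.46 (adjusted p = 0.0247) from 11832, 10708 and 13803. Rpl22, which also binds small viral and cellular RNAs outside the ribosome, rose by 0.38 (adjusted p = 0.0448), from 10757, 11420 and 12647 to 15578, 16323 and 13478. In these 6 genes no 48 h sample was below a 0 h sample. Every 48 h sample was above every 0 h sample in 9 of 45 genes, against 31.9% of all genes. Every one was below in 1, against 21.2%.

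After quantile normalization 36 of 45 rose in this comparison and 0 fell, where 23.5% of all genes were higher, and the median was 0.57 with 0.03 over all genes. The count was 3 with the arrays centred, where 22.6% of all genes were higher and the calls of Rpl3 (adjusted p = 0.0522), Rpl22 (0.179) and Rpl23 (0.0865) ended. It was 2, Rps4y2 among them, with the actin ratio as a covariate, where 16.5% of all genes were higher. With only the 2 groups the calls of Rpl12 (0.0584), Rpl22 (0.111) and Rpl23 (0.0899) ended, and without the filter that of Rpl22 (0.0688). With the mean of its probe sets Rpl3 was at 0.16 (adjusted p = 0.661). The count was 11 without the 48 h sample of rat 3, 3 without that of rat 1, 2 without that of rat 2, 3 without the 0 h sample of rat 1 or of rat 2, and 1 without rat 1 or without rat 2. In these fits 1824 to 2568 of all 10649 genes were higher, and 2468 in the fit that gave 11. Rps4y2 held in all 9 such fits (adjusted p up to 0.0179). The call of Rpl14 ended without rat 1 or rat 2 (adjusted p 0.0516 to 0.0644). The call of Rpl3 ended without either of these, without the 48 h sample of rat 2 or without the 0 h sample of rat 1 (0.0665 to 0.16). The calls of Rpl12 (0.051 to 0.183), Rpl23 (0.0608 to 0.228) and Rpl22 (0.0509 to 0.273) ended without rat 1, rat 2, the 48 h sample of either, or the 0 h sample of rat 2. Those of Rpl22 and Rpl23 ended also without the 0 h sample of rat 1, and that of Rpl22 without rat 3.

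The subunits were also taken apart. The medians of the 30 large-subunit genes were -0.11, 0.18, 0.17, -0.13, 0.15 and 0.22 in the 6 comparisons, in the order above, and those of the 15 small-subunit genes -0.07, 0.12, 0.19, -0.10, 0.10 and 0.28. The difference between the subunits was not tested. Of the 40 genes left without the relatives, 0, 3, 1, 0, 5 and 5 rose in the 6 comparisons, and 0, 0, 0, 0, 1 and 0 fell. The shares over all genes are those given above. Of the 5 genes named as relatives, Rps27l, which is also a target of p53, was at 994, 576 and 961 in liver and 1673, 1030 and 857 at 48 h, a difference of 0.47 (adjusted p = 0.165) with overlapping groups. Rpl26l1 was near the array median in all groups, at 93.6, 127 and 99.2 in liver and 88.4, 69.3 and 83.8 at 48 h, while Rpl26 was at 28694, 28237 and 29555 and then 27875, 26361 and 21730. Rpl39l1 was dimmer still, at 25.5, 12.7 and 37.2 in liver and 73.9, 163 and 37.3 at 48 h, a difference of 1.74 with a standard error of 0.91 (adjusted p = 0.13). The 36 probe sets that list several genes had medians of -0.18, 0.11, 0.19, -0.13, -0.03 and 0.17 in the 6 comparisons.

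The genes that build and regulate ribosomes are given beside them, from lists written from general knowledge. Of 92 ribosome biogenesis genes tested, 76 rose and 0 fell between 0 and 4 h, where 16.3% of all genes were higher, with a median log2 fold change of 1.07. They included Rrp12 (3.03), Tsr1 (2.49) and Nolc1 (2.32), which act in the export or processing of pre-ribosomes and in the nucleolus, with adjusted p of 3.57e-06, 3.5e-06 and 2.57e-06. Between 4 and 24 h 40 fell and 3 rose, where 13.5% of all genes were lower, with a median of -0.43, among them Polr1b (-1.57, adjusted p = 3.48e-06), a subunit of the polymerase that transcribes ribosomal RNA. Between 24 and 48 h, 1 of them fell, Polr1b again, by 0.57, where 1.77% of all genes were lower. At 48 h, 41 were higher and 0 lower than in liver (median 0.47), where 25.4% of all genes were higher, led by Pno1 (1.57), which acts late in the making of the small subunit. Against 0 h, 37 were higher at 48 h, where 26.6% of all genes were higher. Over the 20 alternatives between 62 and 79 of these genes rose at 4 h and 0 fell, where 1179 to 1993 of all genes tested were higher. Rpl7l1, counted among the ribosomal protein genes, rose and fell in the same comparisons as the majority of those called here.

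Of 15 other mRNAs of the TOP class tested, 13 encode translation factors or proteins that bind the ribosome, and the others are Nap1l1, a histone chaperone, and Hnrnpa1, a splicing factor. At 4 h 1 of them rose, Nap1l1 (1.25, adjusted p = 4.27e-05), where 16.3% of all genes were higher. At 24 h against 4 h, 4 rose and 0 fell, with a median of 0.27, where 26.3% of all genes were higher, a share near that of the list. At 48 h 8 were higher and 0 lower than in liver, where 25.4% of all genes were higher, with a median of 0.46, and 7 were higher than at 0 h, where 26.6% of all genes were. The largest changes against liver were those of Nap1l1 (2.26), the elongation factor subunit Eef1g (0.90, from a mean signal of 8161 to 15210) and the initiation factor subunit Eif3k (0.71). Of 73 genes of the mitochondrial ribosome, 7 rose and 15 fell at 4 h (median -0.17), where 16.3% of all genes were higher and 22.6% lower, with Mrps31 (1.59) and Mrpl47 (1.23) at the top. Between 4 and 24 h 25 of them rose and 2 fell (median 0.32), where 26.3% of all genes were higher and 13.5% lower. At 48 h 16 were higher and 1 lower than in liver (median 0.25), with Mrps6 at 1.56, where 25.4% of all genes were higher and 22.6% lower.

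Among 19 genes of mTOR, S6 kinase and Myc signalling, 7 rose and 3 fell at 4 h, where 16.3% of all genes were higher and 22.6% lower. Eif4ebp1, the repressor of cap-dependent translation that mTOR inactivates, rose by 1.47 (adjusted p = 0.000401), Myc, a driver of ribosome synthesis, rose by 1.11 (adjusted p = 0.026), and Sesn2, an inhibitor of mTOR under amino acid shortage, fell by 1.55 (adjusted p = 0.000195). At 24 h against 4 h, 5 rose and 3 fell, Deptor, an mTOR inhibitor, among the first with 1.22. At 48 h 5 were higher and 3 lower than in liver. With 26.3% and 25.4% of all genes higher and 13.5% and 22.6% lower in these comparisons, the counts of this list were near the background. Eif4ebp1 was higher by 1.92 (adjusted p = 2.77e-05) and Myc by 0.97 (adjusted p = 0.0387), and Mxd1, which opposes Myc, fell by 1.12 (adjusted p = 0.00456). Rps6kb1, the S6 kinase itself, was lower at 48 h than at 0 h (-0.87, adjusted p = 0.012). In RPH 0 h against liver none of the genes on these 4 lists passed the test (limma). At an unadjusted p under 0.05, 2 biogenesis genes were higher and 4 lower, 4 genes of mTOR, S6 kinase and Myc signalling were lower, and 1 mitochondrial ribosomal protein gene was lower. Of all genes 2.10% were higher and 11.2% lower at that threshold.

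**Figure D4:**
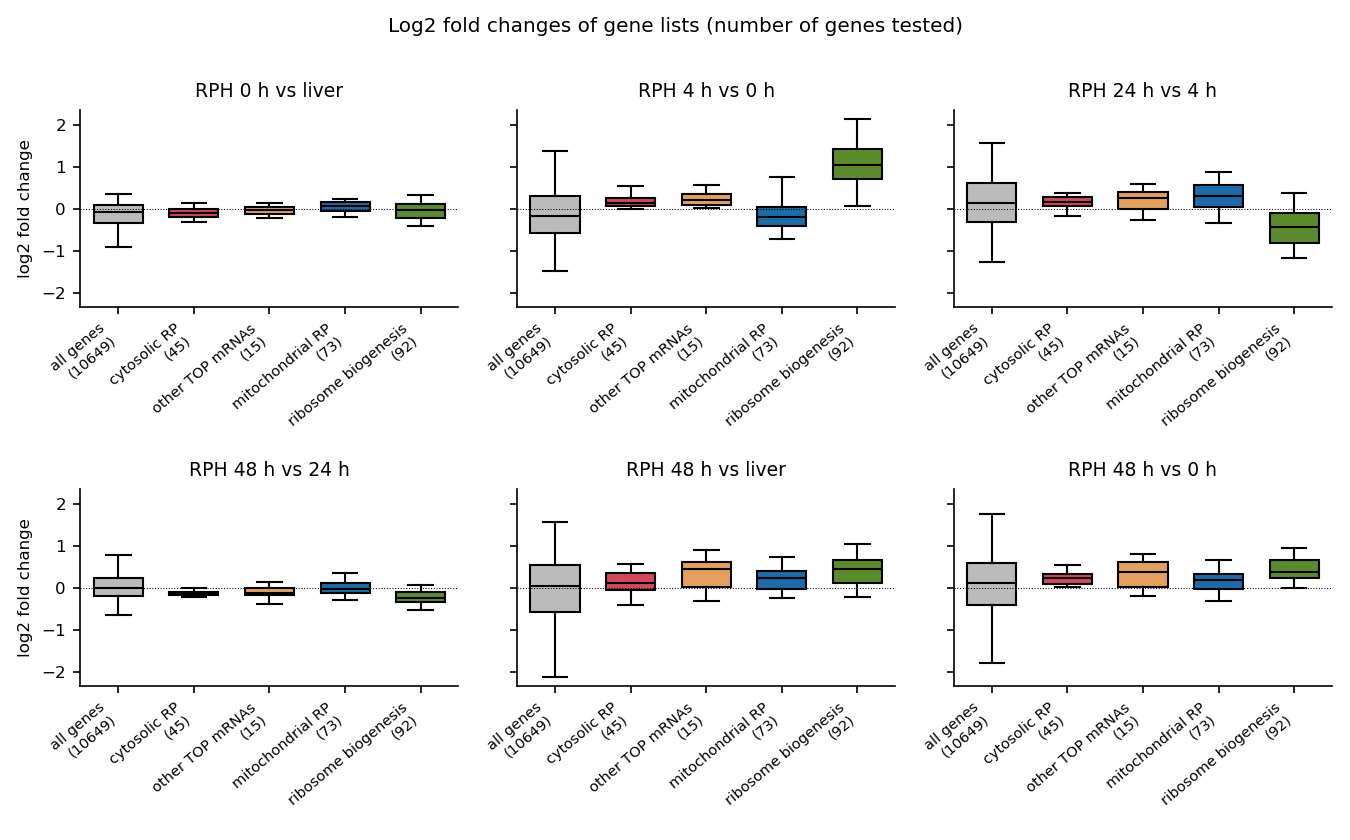
Log2 fold changes in the 6 comparisons for all genes tested, the 45 cytosolic ribosomal protein (RP) genes, other TOP mRNAs, mitochondrial RP genes and ribosome biogenesis genes; boxes show the quartiles and median, whiskers the 5th and 95th percentiles over genes. Biogenesis genes have a median of 1.07 at 4 h against 0 h and -0.43 at 24 h against 4 h, where the cytosolic RP genes are at 0.16 and 0.18 in narrow boxes.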

How the data were processed

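Per the labels and the study's methods, RNA of liver and RPH from 3 male Sprague Dawley rats was hybridized to RG230-2 arrays. The authors deposited MAS5 signal intensity values for 43 arrays, each scaled to a mean of 500 after trimming 2% at each end. Command Console and the affy package are both named, and the sources used here do not say which of them produced the values. Array number limits the precision. All columns were assigned to a sample by title (0 left over). Scaling to a common mean lets other bright genes move the signals of bright genes.

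Log2 signals (no offset) were averaged over technical arrays, giving 15 samples. Single-gene probe sets above the array median (non-control probe sets) in at least 5 arrays were kept, the one with the highest mean standing for its gene. All 15 samples were fitted with limma 3.58.1 in R 4.3.3 (lmFit, eBayes) without a block, with Benjamini-Hochberg adjustment over 10649 genes in each of 6 comparisons and a threshold of 0.05. The script was tested on simulated data. The p-values rest on 3 rats per group, and an exact test of 3 against 3 cannot go below p = 0.1. Samples of the same rat, paired through the rat number of the labels, had residuals with a median r of 0.34 (30 pairs), against -0.18 for different rats (60 pairs). The livers of rats 1 and 2 correlated with their own rat at a median of -0.0036 and -0.059, and with the other of these 2 at 0.20 and 0.087. The rule leaves out symbols that end in ps and digits. This was read as the pseudogene suffix -ps, since the literal reading also drops genes such as Rps13, and is given as an alternative chosen after seeing the data. Start sequences were matched for 41 genes by gene ID and 2 (Rpl37a and Rps9) by symbol, and 5 were not matched.

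Members and lists were chosen with earlier results of these data known. The genes named are the 5 brightest members, up to 4 rises and 4 falls per comparison among members called and changed alike in every rat, Rplp0, Rpsa, Rps6, Rpl5, Rpl11, relatives with the gene they are named after, the 3 members with the lowest correlation, and up to 3 called genes per other list and comparison. Other called members, and those printed as examples of start sites, were named after their values were seen. Rplp1, Rplp2 and Rps27a were not analysed here. Alternatives were median centring, quantile normalization, an offset of 32, no or a stricter filter, the mean of probe sets, a rat block, 2 groups only, technical arrays with a random block, an intensity trend, the actin ratio, and leaving out each rat or sample.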

Additional observations from a re-analysis of the deposited data

How the results depend on the processing

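With the arrays centred on their median the median of the ribosomal protein genes was reversed for 0 h against liver (0.28) and moved to 0.53 for 48 h against liver, with 25 calls, and 48 h against 0 h had 3 calls. Quantile normalization gave 23 calls and a median of 0.39 for 24 h against 4 h, 30 and 0.47 for 48 h against liver, 36 and 0.57 for 48 h against 0 h, a reversed median of 0.026 for 48 h against 24 h, and 0.16 for Rps29 at 48 h against liver. The count was 1 without a filter (24 h against 4 h), 1 and 3 with only the 2 groups (4 h against 0 h, 48 h against 0 h), 5 and 10 with technical arrays and a random block (24 h against 4 h, 48 h against 0 h), and 1 and 2 with the actin ratio (48 h against liver, 48 h against 0 h). In the same order, 2586 of 14218 genes were higher without a filter. Of 10649 genes, 1362 and 2450 were higher with only the 2 groups, 3030 and 3019 with technical arrays, and 1456 and 1753 with the actin ratio. The cause was not tested. The remaining counts and medians under these settings, an offset of 32, the stricter filter, the mean of probe sets, the intensity trend and the literal symbol rule stayed within 1.5 times (counts) and within 1 SD over rats (medians), the largest such SD being 0.24. That includes 0.066 against 0.13 for 48 h against liver with the actin ratio.

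Leaving out a rat or sample gave counts of 0 to 1, 2 to 4, 0 to 4, 0 to 0, 1 to 8 and 1 to 11 for 0 h against liver, 4 h against 0 h, 24 h against 4 h, 48 h against 24 h, 48 h against liver and 48 h against 0 h. The medians were -0.17 to -0.041, 0.11 to 0.22, 0.085 to 0.23, -0.22 to 0.00079 (reversed, without rat 3), 0.027 to 0.25 and 0.15 to 0.39. Some of these fits leave 2 samples in a group. The counts over all 10649 genes also varied in these fits, given in the same order. Those higher were 0 to 24, 1179 to 1632, 1616 to 2583, 18 to 210, 1785 to 2430 and 1824 to 2568. Those lower were 0 to 185, 1411 to 2140, 871 to 1326, 18 to 165, 1582 to 2312 and 1303 to 1725.

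With the rat as a replicate block the counts were 0, 5, 4, 0, 8 and 8 in the same order, and no call was lost. Of all 10649 genes, 12, 1993, 3255, 470, 3060 and 3219 were then higher and 51, 2963, 1744, 290, 2816 and 2167 lower. Over the 20 alternatives 11 to 34 mitochondrial ribosomal protein genes rose at 24 h against 4 h, and 2 to 9 other TOP mRNAs were higher at 48 h than in liver. Of all genes tested, 1616 to 3255 and 1456 to 4319 were higher in these 2 comparisons. Calls of dim probe sets (Rps13, Rpl39) rest on low signals, those of Rps13 near the array median.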
